A study of Homo sapiens with 40 samples.

Results

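RNA released from the insoluble pellet (PE) was compared with RNA of the chromatin-bound nuclear extract (CBNE) on day 5 of mesoderm differentiation of H1 cells, an established human embryonic stem cell line. The comparison holds 4 libraries, PE replicates 1 and 2 and CBNE replicates 1 and 2, of the 40 samples of the series and of its 36 total RNA libraries. Members were picked by their labels (total RNA, day 5, PE or CBNE), with earlier results of these data known. The genes described are those at a mean of 40 TPM or more over the 4 libraries, 3218 of 57939. TPM are reads per kilobase of gene, scaled to nearly the same total in each library.

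The series asked where in the cell each RNA lies before differentiation (day 0) and on days 3 and 5. All cells were wild type (WT). Differentiation began with BMP4 at 10 ng/mL in IMDM medium with serum and went on with bFGF at 2.5 ng/mL. A protein fractionation kit was used to take cytoplasmic (CE), membrane (ME) and soluble nuclear (SNE) extracts, then CBNE and last PE, beside unfractionated cells (INPUT). Both groups compared here are therefore from WT H1 cells on day 5 under the same treatment, and they differ only in the extract. CBNE was freed from nuclei by micrococcal nuclease, an enzyme that cuts both DNA and RNA, and PE was what the last buffer took from the remaining pellet, which the kit calls the cytoskeletal extract. The labels do not say that replicates came from separate cultures, so p-values measure the spread between these libraries, which may be technical. The extracts were bulk material, so fewer cells of a type and less RNA per cell cannot be told apart.

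As background, newly made transcripts stay tied to the DNA template by RNA polymerase while they are being spliced, so RNA that travels with chromatin holds unspliced transcripts. Small nucleolar RNAs (snoRNA) guide the processing and chemical modification of ribosomal RNA in the nucleolus, a dense nuclear body built on the ribosomal DNA repeats. The detergent- and nuclease-resistant remnant of a cell holds the cytoskeleton, the nuclear matrix and material bound to them, including part of the polysomes.

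The libraries differed greatly in depth. Whole read numbers, which the deposited values allow to be rebuilt, came to 380096 and 499370 in CBNE and to 4032783 and 7862412 in PE. The 24 libraries of the other extracts and INPUT over the 3 days held 8604862 to 28535284. A single read on 1 kilobase of gene was worth 61.8 and 51.8 TPM in CBNE but 5.37 and 3.37 TPM in PE. Library numbers in the titles put the PE and CBNE libraries of day 5 together, apart from those of the other days and of day 5 INPUT, and nothing states what this numbering means. In INPUT, 11 of 12 mesoderm markers reached 1 TPM on day 5, and their summed level was 1626 TPM against 120.5 TPM on day 0. KDR of that set went the other way, from 95.0 TPM on day 0, most of the day 0 sum, to 29.6 TPM on day 5. Endoderm markers rose too, from a sum of 7.55 TPM on day 0 to 958 TPM on day 5, of which CER1 held 904 TPM. Amnion or trophoblast markers rose from 11.3 to 706 TPM, and neuroectoderm markers fell from 61.7 to 38.1 TPM. The 7 pluripotency markers summed to 1716 TPM on day 5 and 3796 TPM on day 0, with SOX2, a gene lying inside SOX2-OT, listed at 0 on both days. Markers of endothelium and blood summed to 1.59 TPM on day 5, with HBE1, HBZ and TAL1 listed at 0.

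PE and CBNE held very different RNA. By limma, 1152 of the 3218 genes were higher in PE and 697 were lower, where a call needs an adjusted p (Benjamini-Hochberg) below 0.05 together with a log2 difference of 1 or more in size. That is 57.5% of genes called, 35.8% higher and 21.7% lower. The libraries of the extracts did not overlap at 2745 genes (85.3%). The median gene was 0.55 higher in PE on the log2(TPM + 1) scale. With each library shifted to the same median, 905 genes were higher and 854 lower, so the share of higher among called genes went from 62.3% to 51.4%, and with quantile normalisation the numbers were 877 and 929. The count also leaned on each PE library, since leaving out PE replicate 1 left 353 higher and 265 lower and leaving out PE replicate 2 left 257 and 232. No gene called in those fits was called in the opposite direction.

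Some calls of genes higher in PE rested on an absence in the shallow extract, and many on few reads there. CBNE held no read of 118 genes, of which 116 were among the 1152 called higher. In 51 of the 118, PE stood above the TPM that 3 reads over both CBNE libraries are worth. Genes called higher had a median of 14 reads over both CBNE libraries, and genes called lower 189. PE held no read of 16 genes. A set of 2368 genes whose mean was worth 10 reads or more in the shallower CBNE library held 798 of the genes called higher and 622 of those called lower. At the edge of the filter, GATA6 (40.01 TPM), LAPTM4A (40.03) and ATAD3B (40.04) were just inside, and MT-RNR2 (39.9994), FBXO46 (39.9934) and FIGN (39.9889) were just outside. Across genes, which are not independent replicates, Pearson's r between replicates was 0.94 in PE and 0.65 in CBNE, and 0.91 in CBNE over the 2368 genes. The mean of PE ran with INPUT (r = 0.85) and that of CBNE did not (r = -0.05). Over the 2368 genes these values were 0.89 and 0.15. Genes were kept by the mean of the same PE and CBNE libraries, so a gene low in PE was kept only if high in CBNE. The part of this choice in the values of r was not tested.

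**Figure D1:**
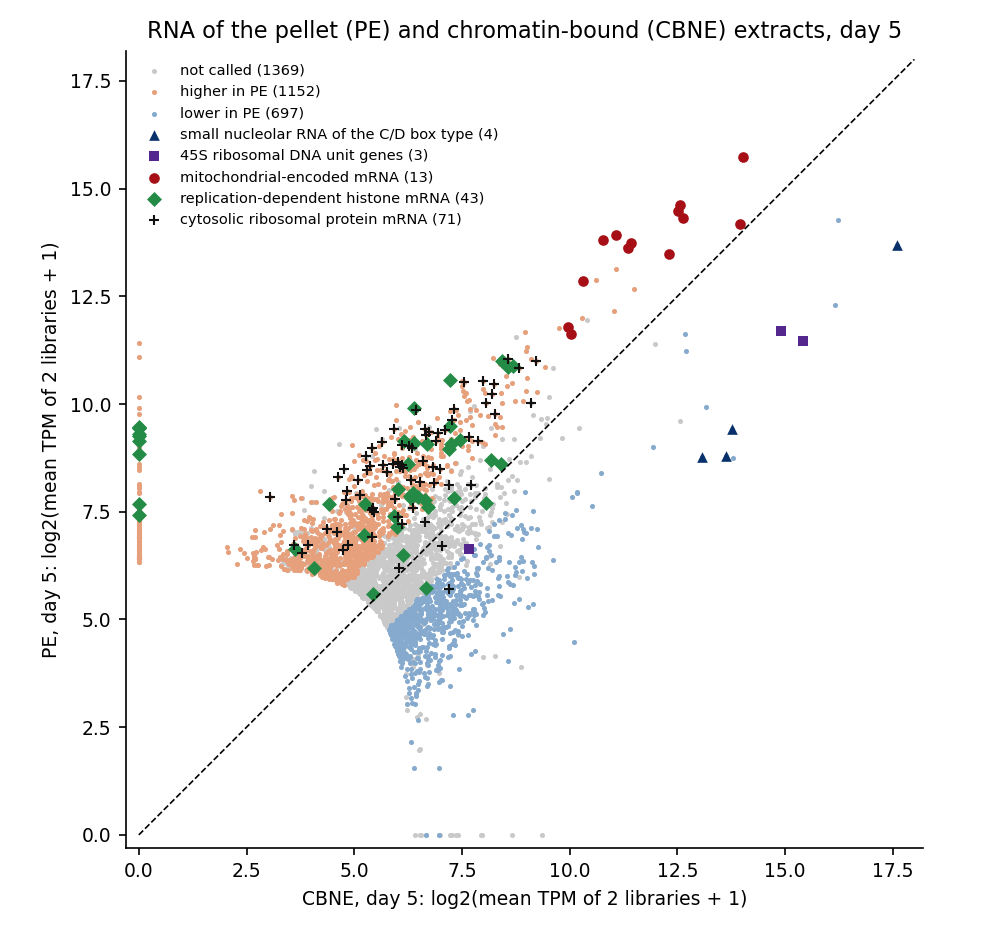
Each point is a gene kept, with its mean level in CBNE on the x axis and in PE on the y axis, both as log2(mean TPM of 2 libraries + 1), and the dashed line marks equal levels. The U3 genes and 2 of the 3 ribosomal DNA genes lie far below the line, mitochondrial-encoded mRNAs lie above or on it, and the column of points at 0 on the x axis holds genes without a read in CBNE.

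By TPM, which is per kilobase of gene, the highest RNA of CBNE was U3, the box C/D snoRNA that guides the first cuts of the ribosomal RNA precursor. Its gene SNORD3A stood at 16053 and 10319.7 TPM in PE and at 211991 and 183838 TPM in CBNE. By reads it was not the highest, with 2396 and 2481 in CBNE against 24008 and 21840 of FP671120.4, a ribosomal DNA gene described below. In TPM of SNORD3A both CBNE libraries were far above both PE libraries, and INPUT lay at 1848 ± 35.8 TPM (SD, n = 2). The log2 difference was -3.94 ± 0.29 (SE; adjusted p = 0.00200 in limma), or 15.3-fold lower in PE. The mature U3 of SNORD3A lies at chr17:19188016-19188232 on the plus strand of GRCh38, in GENCODE 29, the annotation matched to the table, whose gene runs on to 19188714. It is shown because SNORD3A is the highest gene of CBNE by TPM. Capitals mark box C (TGATGA) and box D (CTGA), the motifs bound by the proteins of this snoRNA class. The sequence is that of the GENCODE transcript, written 5′ to 3′ with T for U.
SNORD3A: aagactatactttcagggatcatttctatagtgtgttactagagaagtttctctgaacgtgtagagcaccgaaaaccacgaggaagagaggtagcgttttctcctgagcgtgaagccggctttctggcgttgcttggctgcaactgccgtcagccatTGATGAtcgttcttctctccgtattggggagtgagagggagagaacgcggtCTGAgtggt

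The other U3 genes have nearly the same 217 bases. Counted from 1 at the 5′ end, SNORD3B-1 and SNORD3B-2 each differ from SNORD3A by A78C, and SNORD3C by G108A, so reads of these copies can be split among the genes in ways the counting decides. All 4 genes lie on chromosome 17 and all were lower in PE. SNORD3B-1 stood at 467 and 422 TPM in PE and at 11586 and 13666 TPM in CBNE (log2 -4.82 ± 0.20). SNORD3C stood at 887 and 487 TPM in PE and 14796 and 12926 in CBNE (log2 -4.39 ± 0.34). SNORD3B-2 stood at 448 and 417 TPM against 7506 and 9626 (log2 -4.29 ± 0.22). The adjusted p was 0.00200 for each in limma. These were the only 4 of 308 box C/D genes that passed the filter. Of the 308, 294 overlap another gene, mostly a host gene, and 303 were listed at 0 in all 4 libraries, 293 of them overlapping. Reads that fall on more than a single gene may have been left uncounted, which was not tested, so the data say little about snoRNA other than U3.

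The rebuilt reads show what the TPM of U3 rest on. SNORD3A had 2091 and 2141 reads in PE and 2396 and 2481 in CBNE, although PE held 13.5 times as many reads in all. Its reads in the 12 PE and CBNE libraries of the 3 days lay between 2068 and 2481, and in the 6 SNE libraries between 709 and 944. The number of SNORD3A reads therefore varied little while the total of gene reads varied greatly, and the total of reads sequenced, those of ribosomal RNA included, is not given in the sources used here. Among 613 genes kept with 200 or more CBNE reads, the median gene had 6.40 times as many reads in PE as in CBNE, and 10 genes had fewer. These 10 were SNORD3A, SNORD3B-1, SNORD3B-2, SNORD3C, FP671120.4, AC018638.5, AL357562.1, STAG3L3, Z93930.2 and KDM2B-DT (chosen after their values were seen).

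Transcripts mapped to the ribosomal DNA unit followed U3. FP671120.4, an annotated lncRNA that covers a ribosomal DNA unit on chromosome 21 (chr21:8197620-8227646), stood at 2877 and 2746 TPM in PE and 49448 and 37673 TPM in CBNE (log2 -3.94 ± 0.23; adjusted p = 0.00200). FP236383.3, which covers another copy (chr21:8380665-8410645), stood at 4557 and 2066 TPM in PE and 33552 and 27652 TPM in CBNE (log2 -3.31 ± 0.43; adjusted p = 0.00372). In both genes the extracts did not overlap, and the near-identical repeats mean that reads can be shared between them. Of the 7 listed genes of the unit 3 were kept, and RNA5-8SN1, a copy of the 5.8S rRNA gene, was not called with 5 and 1 reads in PE and 1 and 0 in CBNE. Together the 7 genes took 7.45 ± 1.27% of summed TPM in CBNE, 0.624 ± 0.197% in PE and 0.0227 ± 0.00135% in INPUT (SD, n = 2 each). RNA7SL, the RNA of the signal recognition particle that guides secreted proteins to the endoplasmic reticulum, was kept as RN7SL3 only. RN7SL3 stood at 24732 and 15043 TPM in PE and 71567 and 80724 TPM in CBNE (log2 -1.98 ± 0.30; adjusted p = 0.00529), and it had more reads in PE (1378 and 1335) than in CBNE (346 and 466).

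Some genes without a known role were as far apart. AL357562.1 on the X chromosome stood at 590 and 266 TPM in PE and 13913 and 14543 TPM in CBNE (log2 -5.16 ± 0.42; adjusted p = 0.00201). AC018638.5 on chromosome 7 stood at 6811 and 3289 TPM against 72426.5 and 73021 (log2 -3.94 ± 0.39; adjusted p = 0.00222). The CBNE libraries stood above the PE libraries in each. AC018638.1, which overlaps AC018638.5, and AC007370.1 were also among the 12 largest differences, from at most 10 reads in a CBNE library. The call of the RNA named Metazoa_SRP rested on 1 read in each CBNE library.

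RNA classes differed accordingly between the extracts. A TPM share counts short genes more than a share of reads does, so both are given, each as the mean ± SD of 2 libraries, with no test, since the smallest p of an exact permutation test of 2 libraries against 2 is 0.333. The snoRNA class took 23.4 ± 1.82% of TPM in CBNE and 1.54 ± 0.413% in PE, against 0.240% in INPUT, and 0.663% and 0.0445% of reads. Mitochondrial-encoded RNA took 7.50 ± 0.295% of TPM in CBNE and 25.2 ± 2.74% in PE, close to the 21.0% of INPUT, but only 0.340% of reads in CBNE, 1.02% in PE and 1.25% in INPUT. Protein-coding RNA of the nuclear genome took 34.9 ± 2.58% of TPM in CBNE and 56.4 ± 3.98% in PE, and 83.2% and 92.5% of reads. Long noncoding RNA (lncRNA) took 11.1 ± 0.874% of TPM in CBNE and 7.09 ± 0.281% in PE, and 14.0% and 5.43% of reads, against 3.42% of reads in INPUT. In each of these classes the 2 CBNE libraries lay on the same side of the 2 PE libraries.

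**Figure D2:**
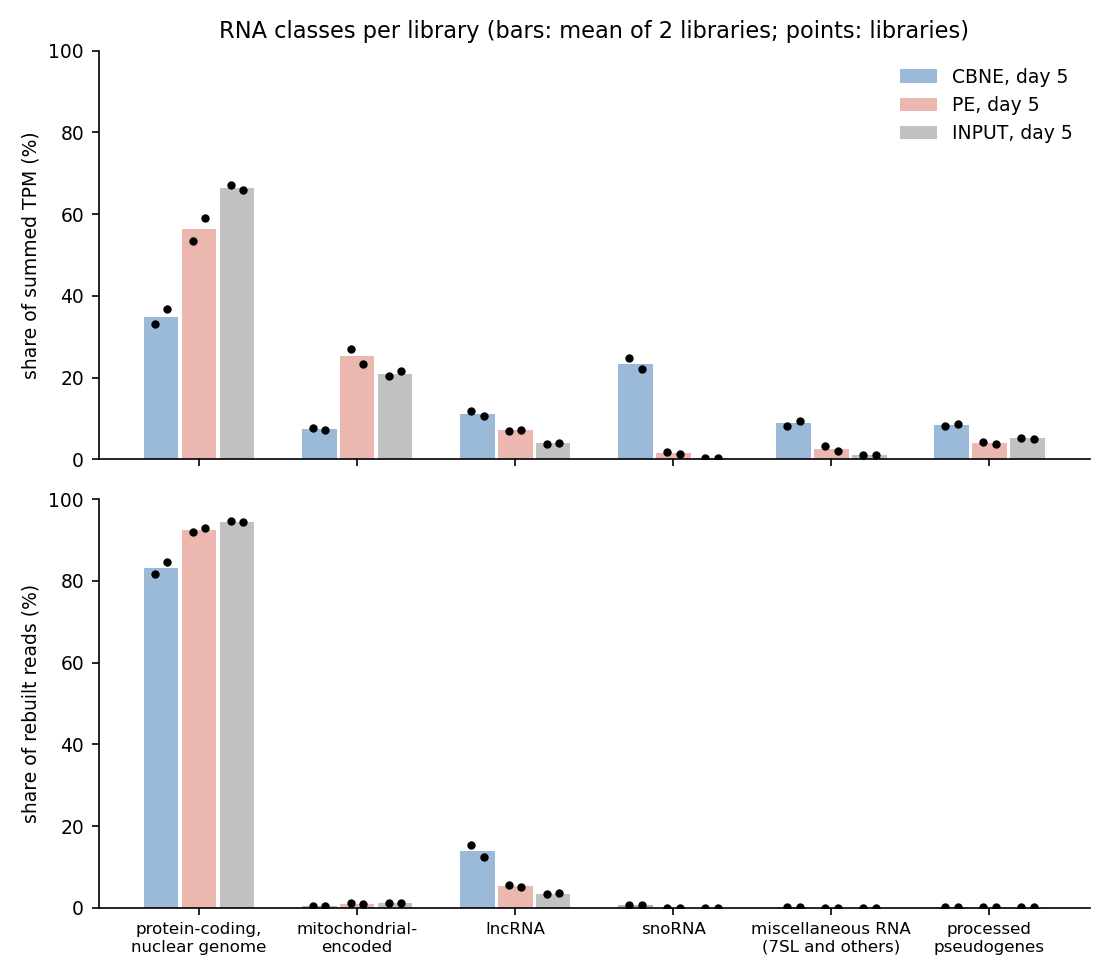
Shares of summed TPM (top, %) and of rebuilt reads (bottom, %) for 6 RNA classes in CBNE, PE and INPUT of day 5, with bars at the mean and points at the libraries. snoRNA took 23.4% of TPM in CBNE and 1.54% in PE, and protein-coding RNA of the nuclear genome took 34.9% and 56.4%.

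Messenger RNAs made in mitochondria were higher in PE. Of the 13 mRNAs, all kept, 12 were called higher and none lower (92.3% and 0%, beside 35.8% and 21.7% of all genes kept). Their median log2 difference was 2.03 beside 0.55 for all genes. MT-CO1, a subunit of the last enzyme of the respiratory chain, stood at 57642.5 and 50687 TPM in PE and 16925 and 16392 TPM in CBNE (log2 1.70 ± 0.20; adjusted p = 0.00281), which is 3.25-fold higher in PE. MT-ND6, the mRNA made from the other strand of the mitochondrial genome, stood at 14627 and 14067 TPM against 1531 and 1973 (log2 3.04 ± 0.22; adjusted p = 0.00200), the largest difference of the 13. INPUT held 3879 TPM of MT-ND6, below both PE libraries. MT-ND1, MT-ND2 and MT-CYB were also higher, by 2.84, 2.57 and 2.30 on the log2 scale. MT-ND5 was the exception, at 19342 and 17582 TPM in PE and 14608 and 16950.5 TPM in CBNE (log2 0.23 ± 0.20; adjusted p = 0.363), and its difference turned to -0.10 when libraries were set to a common median. MT-ND5 thus took nearly as much of CBNE as MT-CO1 did.

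Mitochondrial tRNAs were sampled by few reads in PE and hardly at all in CBNE. With mitochondrial rRNA they took 2.84 ± 0.332% of TPM in PE but 0.00807% of reads, and 0.640 ± 0.134% and 0.00225% in CBNE. Of 24 genes of mitochondrial rRNA and tRNA 19 were kept and 16 called higher (84.2%, beside 35.8% of all genes kept), but 14 had no read in either CBNE library. Only MT-TW and MT-TE of those 14 stood in PE above the TPM worth of 3 CBNE reads, and with unread genes held at that bound the median of the 19 was -0.997 in place of 7.46. Rebuilt reads with limma's voom weights gave 6 higher and 2 lower. MT-TW, which carries tryptophan, stood at 2289 and 3171 TPM in PE, from 29 and 64 reads. It stood at 0 in CBNE, where 3 reads over both libraries would give 1244 TPM. MT-TE, which carries glutamate, stood at 2100 and 2295 TPM in PE and at 0 in CBNE, with 1226 TPM for 3 reads. The RNAs are shown because they are the 2 unread in CBNE whose PE level stood above the worth of 3 CBNE reads, MT-TW at chrM:5512-5579 on the plus strand and MT-TE at chrM:14674-14742 on the minus strand of GRCh38, from GENCODE 29, with the anticodon in capitals.
MT-TW: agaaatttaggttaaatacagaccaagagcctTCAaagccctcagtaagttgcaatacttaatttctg
MT-TE: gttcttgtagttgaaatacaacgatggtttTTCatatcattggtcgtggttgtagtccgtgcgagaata

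MT-TP, the tRNA of proline, was read in every library, at 6550.2 and 6540.3 TPM in PE and 2728 and 3047 TPM in CBNE, from 3 and 4 CBNE reads (log2 1.18 ± 0.19; adjusted p = 0.00609). Its log2 difference was 0.86, under the threshold, with a common median.

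Canonical histone mRNAs, which are made during DNA replication and carry no polyA tail, tended to the PE side. Of 64 genes 43 were kept, and 20 were called higher and none lower (46.5% and 0%, beside 35.8% and 21.7% of all genes kept). The median was 3.91, or 2.32 with the 9 genes unread in CBNE at their bound. All 9 of these stood in PE above the worth of 3 CBNE reads. H1-2, a linker histone, stood at 2006 and 2115 TPM in PE and 289 and 403 TPM in CBNE (log2 2.59 ± 0.24; adjusted p = 0.00216). H1-4 stood at 1922 and 1832 TPM against 410.1 and 412 (log2 2.19 ± 0.18; adjusted p = 0.00200), and H1-5 at 1781 and 1925 TPM against 454 and 304 (log2 2.31 ± 0.26; adjusted p = 0.00265). These 3 rested on 3 to 6 reads in each CBNE library and on 226 to 410 in each PE library. H1-3 stood at 596 and 799 TPM in PE and at 0 in CBNE, where 3 reads would give 127 TPM, and H4C3 at 617 and 767 TPM in PE and at 0 in CBNE, where they would give 194 TPM. The class as a whole took 2.18 ± 0.0475% of TPM in PE and 0.450 ± 0.0658% in CBNE, both below the 8.60 ± 0.495% of INPUT.

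The mRNAs of the translation machinery lay almost wholly on the PE side. Of 71 cytosolic ribosomal protein mRNAs kept of 88, 62 were called higher and 1 lower, with a median of 2.41. That is 87.3% and 1.41%, beside 35.8% and 21.7% of all genes kept. RPLP0, a protein of the ribosomal stalk, stood at 2229 and 1988 TPM in PE and 367 and 387 TPM in CBNE (log2 2.48 ± 0.19; adjusted p = 0.00200), or 5.57-fold higher. RPL3 differed by 1.99 ± 0.22 and RPL41 by 2.55 ± 0.21. The single mRNA called lower was RPS29 (log2 -1.49 ± 0.20; adjusted p = 0.00385), whose annotated span of 28.2 kb overlaps RN7SL1, LRR1 and other genes. Of 19 translation factor mRNAs 14 were higher and 1 lower. EEF1A1, which brings aminoacyl-tRNA to the ribosome, stood at 9735 and 8191 TPM in PE and 2175 and 2124 TPM in CBNE (log2 2.05 ± 0.20; adjusted p = 0.00222), and EIF4G2 differed by 3.65 ± 0.28. The mRNA called lower was EIF4G3 (log2 -1.42 ± 0.30; adjusted p = 0.0128), a gene of 371 kb that is 97.4% intron. Still, ribosomal protein mRNA took 3.66 ± 0.127% of PE, less than the 6.33 ± 0.148% of INPUT, and 0.830 ± 0.0289% of CBNE.

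Other abundant mRNAs of the cytoplasm behaved alike. Shares higher were 88.9% of glycolysis, 87.5% of endoplasmic reticulum chaperone and 61.5% of cytosolic chaperone mRNAs, beside 35.8% of all genes kept. Shares lower were 0%, 0% and 7.69%, beside 21.7%. Of 9 glycolysis mRNAs 8 were higher and none lower, among them GAPDH at 2103 and 2224 TPM in PE and 292 and 303 TPM in CBNE (log2 2.86 ± 0.18; adjusted p = 0.00200). Of 8 endoplasmic reticulum chaperone mRNAs 7 were higher. HSPA5, the main chaperone of that compartment, stood at 437 and 604 TPM in PE against 28.6 and 64.0 TPM in CBNE (log2 3.55 ± 0.45; adjusted p = 0.00353), and the remaining member P4HB at 318 and 319 TPM against 339 and 476 (log2 -0.33 ± 0.24; adjusted p = 0.278). Of 13 cytosolic chaperone mRNAs 8 were higher and 1 lower. HSP90AB1 stood at 1445 and 1530 TPM in PE and 160 and 201 TPM in CBNE (log2 3.04 ± 0.21; adjusted p = 0.00200), and HSPA4 was the member called lower (log2 -1.37 ± 0.21; adjusted p = 0.00553).

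**Figure D3:**
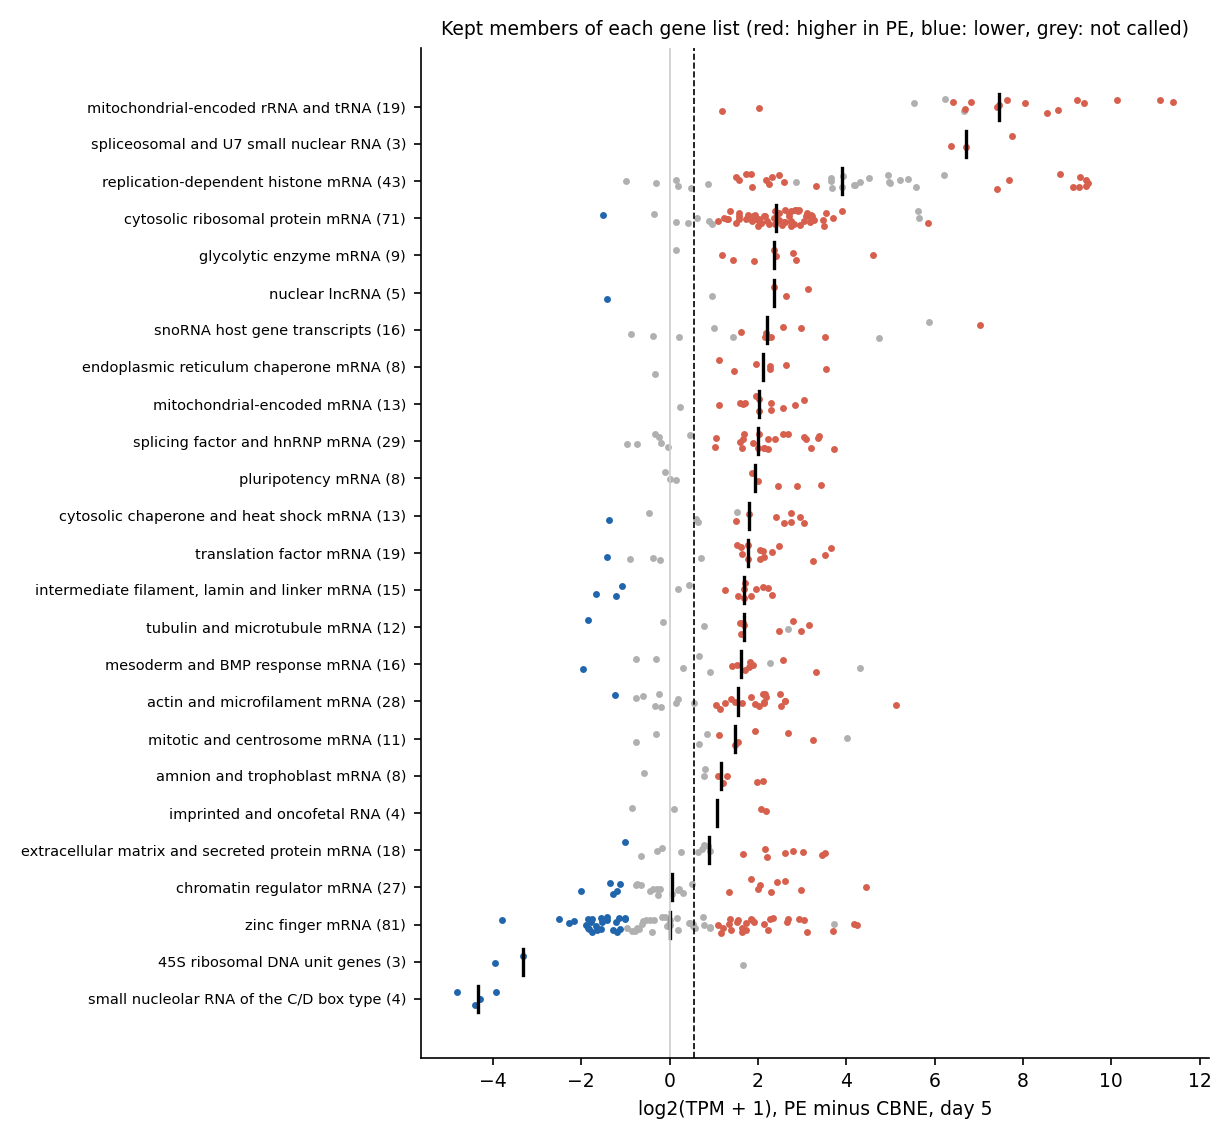
Each point is a kept gene of the list named at the left, placed by its log2(TPM + 1) in PE minus CBNE, with red for genes called higher in PE, blue for genes called lower and grey for the rest. Thick bars mark list medians, the dashed line the median of all kept genes (0.55), and points beyond about 6 are mostly genes without a read in CBNE. Lists of fewer than 3 kept genes are left out.

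The best known nuclear lncRNAs were higher in PE. MALAT1, an RNA of nuclear speckles, stood at 11594 and 14108 TPM in PE and 2312 and 2663 TPM in CBNE (log2 2.37 ± 0.22; adjusted p = 0.00207). NEAT1, which builds paraspeckles, stood at 976 and 1451 TPM against 155 and 232 (log2 2.64 ± 0.32; adjusted p = 0.00304). TUG1 stood at 301 and 349.5 TPM against 42.6 and 30.6 (log2 3.13 ± 0.25; adjusted p = 0.00200). Of the 5 nuclear lncRNAs kept of 17, these 3 were higher and PVT1 was lower, at 37.8 and 50.6 TPM in PE and 109 and 129 TPM in CBNE (log2 -1.42 ± 0.25; adjusted p = 0.00777). MALAT1, NEAT1 and TUG1 have no intron left between the exons of all their transcripts, and PVT1 is 98.2% intron. NORAD, a cytoplasmic lncRNA that binds Pumilio proteins, stood at 3659 and 2868 TPM in PE and 521 and 475 TPM in CBNE (log2 2.70 ± 0.22; adjusted p = 0.00200). Host genes of snoRNA, whose introns hold the snoRNA, had 9 of 16 kept members higher and none lower. Of all 167 lncRNA genes kept 40 were higher and 60 lower (23.95% and 35.9%), beside 35.8% and 21.7% of all genes.

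Cytoskeletal mRNAs, of interest because the kit names PE for the cytoskeleton, were mostly higher in PE. The actin and microfilament list had 19 of 28 kept members higher and 1 lower (67.9% and 3.57%, beside 35.8% and 21.7% of all genes kept). Its median of 1.56 was less than that of ribosomal protein or glycolysis mRNA. FLNA, an actin crosslinker, stood at 1516 and 1722 TPM in PE and 350.5 and 383 TPM in CBNE (log2 2.14 ± 0.20; adjusted p = 0.00208), and TMSB10, which binds actin monomers, differed by 2.62 ± 0.20. MYH9, the heavy chain of nonmuscle myosin, was the other way, at 633 and 561 TPM in PE and 915 and 892 TPM in CBNE, short of the threshold (log2 -0.60 ± 0.19; adjusted p = 0.0434). TPM4 was called lower (log2 -1.23 ± 0.22; adjusted p = 0.00788).

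Of 12 tubulin and microtubule mRNAs 8 were higher and 1 lower (66.7% and 8.33%, beside 35.8% and 21.7% of all genes kept). The member called lower was MAP4, a gene of 239 kb (log2 -1.85 ± 0.21; adjusted p = 0.00262). The intermediate filament, lamin and linker list had 10 of 15 members higher and 3 lower (66.7% and 20%), the share lower being near that of all genes. The filament proteins KRT18 (2251 and 2533 TPM in PE, 476 and 539.7 in CBNE; log2 2.23 ± 0.20; adjusted p = 0.00203), VIM (log2 1.95) and NES (log2 2.32) were higher. The nuclear lamins LMNA (log2 -1.07 ± 0.21; adjusted p = 0.0102) and LMNB1 (log2 -1.20 ± 0.22; adjusted p = 0.00878) and the junction protein JUP (log2 -1.67 ± 0.20; adjusted p = 0.00304) were lower. LMNA stood at 79.1 and 78.1 TPM in PE and 152 and 182 TPM in CBNE. The remaining lamin, LMNB2, was higher, at 321 and 238.01 TPM in PE and 99.0 and 88.2 TPM in CBNE (log2 1.55 ± 0.24; adjusted p = 0.00555). AHNAK, a giant scaffold protein encoded mostly by a single exon, had 114588 and 117090 reads in PE and 2568 and 2845 in CBNE (log2 1.69 ± 0.28; adjusted p = 0.00642).

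Chromatin regulators lay near the shares of all genes. Of 27 chromatin regulator mRNAs 9 were higher and 5 lower (33.3% and 18.5%, beside 35.8% and 21.7% of all genes kept), with a median of 0.05 that turned to -0.28 with a common median of the libraries. CTCF, the insulator protein, stood at 27.4 and 31.8 TPM in PE and 114 and 129.5 TPM in CBNE (log2 -2.003 ± 0.22; adjusted p = 0.00249). SUZ12 of Polycomb complex PRC2, the remodeller SMARCA4, the maintenance methyltransferase DNMT1 and the histone methyltransferase SETD2 were also lower in PE, with log2 differences of -1.34, -1.29, -1.20 and -1.13. KMT2D, another histone methyltransferase, stood at 405 and 429.7 TPM in PE and 74.3 and 96.5 TPM in CBNE (log2 2.29 ± 0.23; adjusted p = 0.00222), and CHD4, TOP2A and KMT2A were higher by 2.60, 2.43 and 2.05. RAD21, a cohesin subunit, had the largest difference (log2 4.45 ± 0.87; adjusted p = 0.0106), from 3 and 1 reads in CBNE.

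Of 479 zinc finger genes 81 were kept, 27 higher and 25 lower (33.3% and 30.9%, beside 35.8% and 21.7% of all genes kept), with a median of 0.01, and with a common median of the libraries 20 were higher and 30 lower with a median of -0.32. Those called higher had a median intron share of 63.4% and those called lower 85.1%. ZNF43 stood at 70.0 and 77.6 TPM in PE and 402 and 439 TPM in CBNE (log2 -2.50 ± 0.20; adjusted p = 0.00200), and ZNF629 at 1224 and 654 TPM in PE and 212 and 195 TPM in CBNE (log2 2.13 ± 0.35; adjusted p = 0.00626). ZNF629 was also high in PE beside the 84.9 TPM of INPUT. Of 29 splicing factor mRNAs 22 were higher and none lower (19 and 2 with a common median of the libraries), among them HNRNPA2B1 at 629 and 911 TPM in PE and 101 and 75.9 TPM in CBNE (log2 3.10 ± 0.29; adjusted p = 0.00219).

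Of 16 mesoderm and BMP response mRNAs kept of 33, 8 were higher and 1 lower (50% and 6.25%, beside 35.8% and 21.7% of all genes kept). HAND1, a transcription factor of lateral mesoderm, stood at 393 and 494 TPM in PE and 169 and 94.4 TPM in CBNE, from 9 and 6 CBNE reads (log2 1.79 ± 0.35; adjusted p = 0.0103). ID1, a direct target of BMP signalling, stood at 1689 and 2019 TPM against 752 and 630.1 (log2 1.42 ± 0.22; adjusted p = 0.00514). ID4, of the same family, lay the other way without reaching the threshold, at 686 and 703 TPM in PE and 1256 and 1115 TPM in CBNE (log2 -0.77 ± 0.19; adjusted p = 0.0207), and was called lower with a common median of the libraries (log2 -1.09; adjusted p = 0.0186). TWIST1 was the member called lower (log2 -1.95 ± 0.28; adjusted p = 0.00444), over an annotated span of 96.7 kb that overlaps AC003986.2. Of 8 pluripotency RNAs 5 were higher. LIN28A, which binds let-7 precursors, stood at 1488 and 1227 TPM in PE and 356 and 385 TPM in CBNE (log2 1.86 ± 0.21; adjusted p = 0.00254), while L1TD1 stood at 535 and 647 TPM against 629 and 642 (log2 -0.11 ± 0.20; adjusted p = 0.642).

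Extracellular matrix mRNAs, translated at the endoplasmic reticulum, had 8 of 18 kept members higher and 1 lower (44.4% and 5.56%, beside 35.8% and 21.7% of all genes kept). The member called lower was FBLN1 (log2 -1.004 ± 0.25; adjusted p = 0.0207). FN1, fibronectin, stood at 1087 and 1344 TPM in PE and 243 and 281 TPM in CBNE (log2 2.20 ± 0.22; adjusted p = 0.00222). LAMA5, a laminin chain, stood at 277 and 283 TPM against 314 and 318 (log2 -0.17 ± 0.19; adjusted p = 0.453).

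Among the genes kept, the structure of the gene ran with the side it took. Genes called higher in PE had a median span of 10.97 kb with 57.2% intron, and genes called lower 44.1 kb with 88.1% intron. Among 437 kept genes without an intron 48.3% were higher and 7.09% lower. Among 583 genes with over 90% intron 11.3% were higher and 47.9% lower. The median log2 difference went from 2.57 without an intron through 1.16 at 50 to 75% intron to -0.89 above 90%. The extremes were alike in the 2368 genes worth 10 reads or more, with 69.7% higher and 13.6% lower among 66 genes without an intron, and 11.2% and 47.7% among 579 above 90%. In the 104 kept genes that overlap no other gene and are over 90% intron, 17.3% were higher and 38.5% lower. These are descriptions without a test, since genes share libraries, and how reads on introns were counted is not given in the sources used here. The median number of reads over both CBNE libraries ran with the bins, from 2 without an intron to 283 above 90%, and its part in the pattern was not tested. The filter used the mean of the same PE and CBNE libraries, so a gene low in either extract was kept only if high in the other. For such a gene the side was fixed by the filter. The bins were not counted under a looser filter, so the part of the filter in these shares was not tested either.

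**Figure D4:**
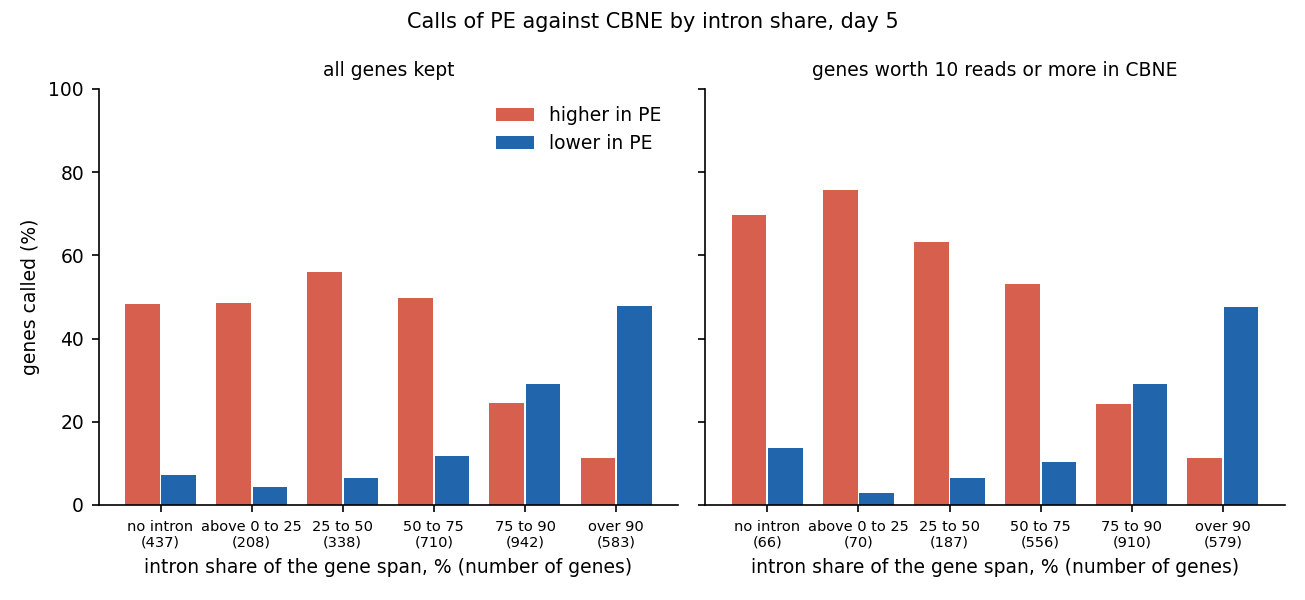
Percent of kept genes called higher (red) and lower (blue) in PE by the share of the gene span that is intron, for all genes kept (left) and for genes worth 10 reads or more in the shallower CBNE library (right), with the number of genes in parentheses. Blue exceeds red in the 2 bins above 75% intron in both panels.

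Well-read examples were picked from both ends. These were chosen after their values were seen, as genes overlapping no other with at least 200 CBNE reads among those lower in PE (64 genes) and at least 50 among those higher (59 genes). LUC7L, which encodes a U1 snRNP-associated splicing factor in a gene that is 84.7% intron, stood at 35.5 and 51.9 TPM in PE and 449 and 449 TPM in CBNE (log2 -3.36 ± 0.26; adjusted p = 0.00200), or 10.2-fold lower in PE. INPUT held 25.1 ± 3.10 TPM of LUC7L, nearer to PE. RAD51C, a recombination protein, stood at 14.6 and 12.2 TPM against 125 and 219 (log2 -3.54 ± 0.34; adjusted p = 0.00222). PIP5K1A, a phosphoinositide kinase, stood at 56.3 and 66.0 TPM against 483 and 540.2 (log2 -3.05 ± 0.21; adjusted p = 0.00200). RBX1, a subunit of cullin ubiquitin ligases, differed by -2.86 ± 0.24. RAD51C and RBX1 had PE means of 13.4 and 35.1 TPM. They passed the filter of 40 TPM only through CBNE, so their side was fixed by the filter. On the other side, PCAT14, an lncRNA with 275 and 328 CBNE reads, stood at 8433 and 6664 TPM in PE and 1558 and 1556 TPM in CBNE (log2 2.27 ± 0.21; adjusted p = 0.00219), above its INPUT of 2699 ± 63.2 TPM. FAT1, a giant cadherin, differed by 2.66 ± 0.23 although its gene is 88.4% intron. With a CBNE mean of 22.5 TPM, FAT1 passed the filter only through PE.

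Some calls needed both PE libraries. Leaving out PE replicate 1 ended the calls of AC007370.1, MT-TW, MT-TP, MT-ND2, H1-2, H1-5, HSPA4, HSPA5, HAND1, ID1, NEAT1, PVT1, RAD51C, RAD21, SMARCA4, DNMT1, SETD2, SUZ12, EIF4G3, FBLN1, LMNA, LMNB1, LMNB2 and TPM4. Leaving out PE replicate 2 ended these and those of KMT2D, KMT2A, CHD4, TOP2A, TUG1, HNRNPA2B1, FAT1, JUP, RPS29, TWIST1 and VIM. Their adjusted p in limma was then between 0.0506 (JUP) and 0.144 (HAND1), and no difference changed sign. The calls of FBLN1 (-0.81) and LMNA (-0.94) also ended without CBNE replicate 2, and that of Metazoa_SRP (adjusted p = 0.327) too. Quantile normalisation ended the calls of HAND1, ID1, LIN28A, RPL3, MT-TP and RN7SL3, and called MYH9 (-1.56; adjusted p = 0.00395), ID4 (-1.56; adjusted p = 0.00325), P4HB (-1.11; adjusted p = 0.0132) and L1TD1 (-1.07; adjusted p = 0.0109) lower. A fit over all 6 PE and CBNE groups ended the calls of MT-TP (adjusted p = 0.736), HAND1 (0.0964) and AC018638.1 (0.0845). The call of MT-TP also ended over all 18 groups (adjusted p = 0.555), with a common median (0.86) and by voom (adjusted p = 0.0674). Voom (-0.98) and pseudocount 10 (-0.92) ended the call of FBLN1 by size, as pseudocount 10 did that of LMNA (-0.99).

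Most differences of day 5 had the same sign on the earlier days. Of the 1152 genes higher in PE on day 5, 1027 had a positive difference on day 3 and 830 on day 0. Of the 697 lower, 681 were negative on day 3 and 668 on day 0. Genes called higher had a median difference of 2.14 on day 5 that was 1.40 on day 3 and 0.49 on day 0, and genes called lower had medians of -1.74, -1.29 and -1.35 in the same order. The median of all kept genes also shifted, at 0.55 on day 5, -0.18 on day 3 and -0.22 on day 0. Both sets were picked by their day 5 calls, which by itself favours larger differences on that day. The same-sign share of all kept genes was not counted. Across the 3218 genes the difference of day 5 ran with that of day 3 (Spearman's rho 0.84) and of day 0 (rho 0.71), with no library shared. PE depth differed by day, with 701897 and 474013 reads on day 0 and 3588432 and 3152342 on day 3, and its part in the smaller day 0 differences was not tested.

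The test of the difference between days itself (PE minus CBNE on day 5, minus the same on another day, in limma) called 426 genes higher and 98 lower of 2941 against day 0, or 14.5% and 3.33%. Against day 3 it called 646 higher and 144 lower of 3521, or 18.3% and 4.09%. The median gene was shifted by 0.60 and 0.56, and with libraries set to a common median the calls were 188 higher and 344 lower, and 274 and 338. These counts leaned on single libraries. Against day 0, leaving out PE replicate 1 or 2 of day 5 left 95 and 37, or 61 and 15. Leaving out PE replicate 2 of day 0 left 133 and 34, and leaving out PE replicate 1 of day 0 left 354 and 46. Leaving out CBNE replicate 1 or 2 of day 0 left 232 and 56, or 247 and 38. Against day 3, leaving out PE replicate 1 or 2 of day 3 left 249 and 53, or 218 and 50. Leaving out CBNE replicate 1 of day 3 left 351 and 107, and leaving out CBNE replicate 2 of day 5 gave 1050 and 168.

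The TPM differences of U3 and of 2 of 3 ribosomal DNA genes lay further to the CBNE side on day 5 than on day 0. This held with or without a common median. SNORD3A was nearer in the extracts on day 0, at 83564 and 93803 TPM in PE and 118672 and 127952 TPM in CBNE. On day 3 it stood at 19557 and 23818 TPM in PE and 50771 and 40873 TPM in CBNE. The PE minus CBNE difference of day 5 was lower than that of day 0 (difference of differences -3.46 ± 0.38; adjusted p = 0.00580) and than that of day 3 (-2.86 ± 0.38; adjusted p = 0.00615). FP671120.4 went from 17872 and 36656 TPM in PE on day 0 to 2877 and 2746 on day 5, while CBNE went from 15605 and 26738 to 49448 and 37673 (difference of differences -4.27 ± 0.58; adjusted p = 0.00741, or 0.0503 without PE replicate 2 of day 5). All 4 U3 genes and 2 of 3 ribosomal DNA genes were called lower in both tests. The day 3 call of FP236383.3, a ribosomal DNA gene, was lost without PE replicate 1 or 2 of day 3 (adjusted p = 0.0530 or 0.0602). The reads of SNORD3A in PE were 2070 to 2298 over the 3 days, while the totals of those libraries were 474013 to 7862412. In CBNE its reads were 2068 to 2481, with totals of 380096 to 1835687. TPM are shares of a library, so a move of U3 between extracts cannot be told apart from a change in the other RNAs.

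Ribosomal protein mRNAs differed the other way against day 0, with 40 of 71 called higher and none lower (18 and none with a common median), and a median of 1.88. Against day 3, 16 were higher and 6 lower, or 6 and 13 with a common median. Mitochondrial mRNAs had 1 of 13 higher and none lower against day 0, and none higher and 6 lower against day 3. Of all genes tested, 14.5% were higher and 3.33% lower against day 0, and 18.3% and 4.09% against day 3. MT-ND5 in CBNE went from 10090 and 13631 TPM on day 0 to 3954 and 3545 on day 3 and 14608 and 16950.5 on day 5, and its PE minus CBNE difference was lower on day 5 than on day 3 (difference of differences -1.83 ± 0.23; adjusted p = 0.00572). LUC7L kept its side on all days, at 85.99 and 67.7 TPM in PE against 345 and 270.01 in CBNE on day 0. Its difference was called lower on day 5 than on day 0 (difference of differences -1.37 ± 0.36; adjusted p = 0.0434 in limma). That call was lost when any library was left out. Against day 3 LUC7L was not called (-0.79; adjusted p = 0.0718). With a common median it was called against both days (-2.01 and -1.28; adjusted p = 0.0105 and 0.0125).

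**Figure D5:**
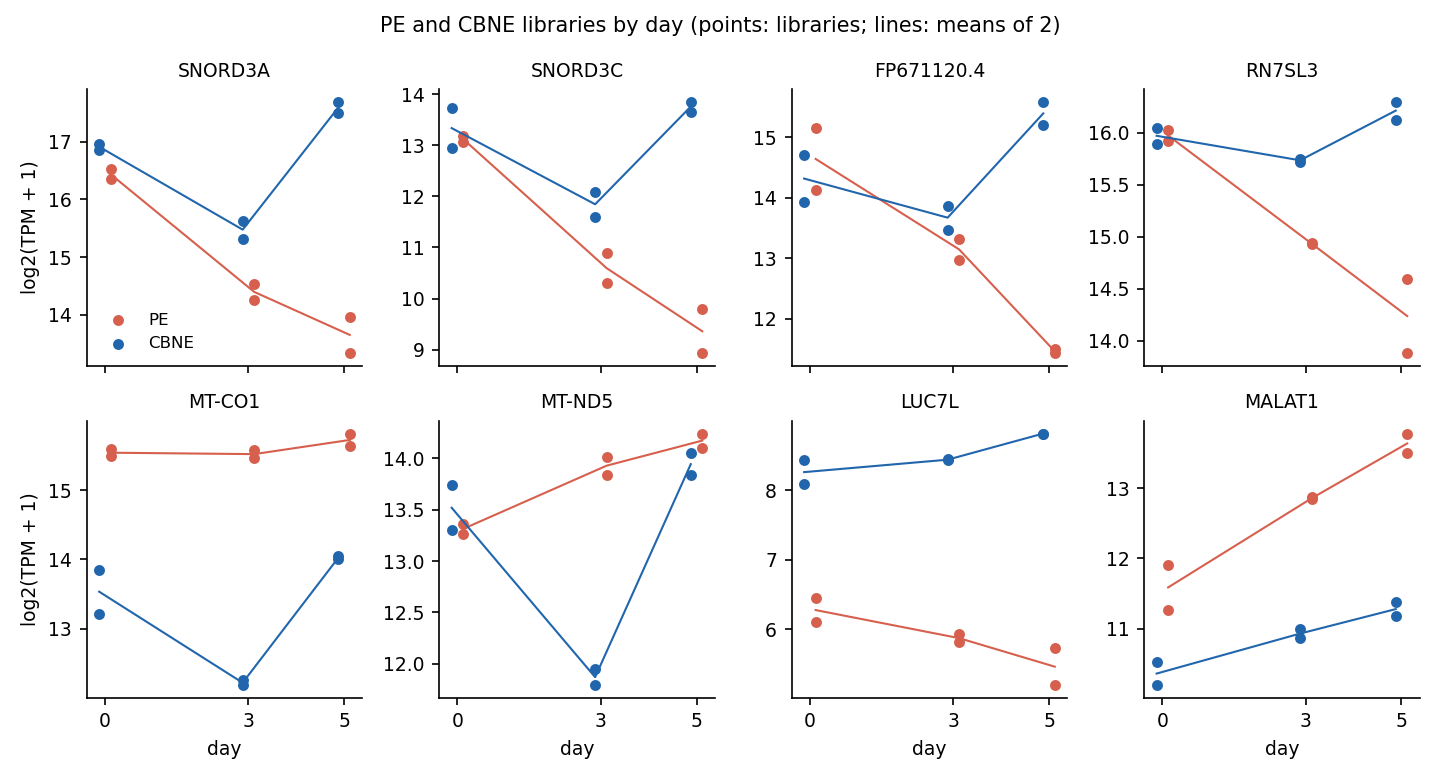
log2(TPM + 1) of 8 genes in the PE (red) and CBNE (blue) libraries of days 0, 3 and 5, with points for libraries, lines through the means of 2 and a y axis of its own for each gene. SNORD3A, SNORD3C, FP671120.4 and RN7SL3 lie closer together on day 0 than on day 5, while LUC7L is higher in CBNE and MALAT1 higher in PE on each day.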

How the data were processed

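Total RNA of subcellular extracts was sequenced in 36 libraries, 2 for each group. The submitters' processing notes name HISAT2 2.0.5, featureCounts 1.6.2, Salmon 1.3.0, GATK and hg38 without saying what each did. The values are TPM as deposited by the authors. Dividing by the genomic span of each gene in GENCODE 29 gave whole reads for 98.5% to 98.8% of values (within 0.05 of a whole number), against 13.3% to 24.2% with summed exon length, so TPM here is per kilobase of gene span, introns included, and reads were rebuilt from it. Strand and the handling of overlapping genes are not given in the sources used here. Of the 3218 genes 2031 overlap another gene, so their reads may belong to the neighbour.

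Genes at a mean of 40 TPM or more over the 4 libraries were tested with limma 3.58.1 (R 4.3.3, trended and robust) on log2(TPM + 1), two-sided, with Benjamini-Hochberg adjustment over all genes kept. This understates changes of low genes. Calls needed an adjusted p under 0.05 and a size of at least 1. A gene at 0 in both libraries of an extract is given by its values and the TPM worth of 3 reads. Gene overlaps were found with bedtools 2.31.1. Alternatives were pseudocount 10, filters of 1 and 100 TPM, other scalings and totals, short genes left out, wider fits, another prior, the replicate block and each library left out. Voom on rebuilt reads, genes worth 10 reads or more and shares of reads were added after seeing the data. On simulated data with 4-fold changes, 159 of 193 genes were recovered (143 of 150 worth 10 reads or more, 16 of 43 below), and 5 of 3000 unchanged genes were called higher and 7 lower. The simulated data had equal means in both extracts for unchanged genes and changes balanced in direction. They held no strong shift of composition, so they do not give the error rate of the real comparison, where 57.5% of genes were called.

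The members, the gene lists and the tests were chosen with earlier results of these data known. Named genes were the 12 largest called, non-overlapping differences in each direction at 200 TPM or more, up to 4 highest members of each list, the 10 highest genes of each extract and the 5 largest day interactions in each direction. Others, such as the members of a list that went against it and the well-read examples, were chosen after their values were seen. A chi-square test of reads over genes with 20 or more found replicates to differ beyond sampling noise, by little in CBNE (mean 1.54 and median 0.510 per gene, p = 8.07e-134) and more in PE (mean 15.9 and median 1.92), so none was counted as a repeat. The test takes genes as independent, and it does not show that replicates came from separate cultures.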

Additional observations from a re-analysis of the deposited data

Results flagged for a closer look

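The PE minus CBNE difference of day 5 was tested against that of day 0 and of day 3 in limma, and the genes with the largest differences between days, at a mean of 100 TPM or more, are given here as log2 values. No explanation is weighed.

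Against day 0, the differences of U3 and of a ribosomal DNA gene lay further to the CBNE side. The values were -4.18 for SNORD3C, -3.99 for SNORD3B-2, -3.87 for SNORD3B-1 and -4.27 for FP671120.4. SNORD3B-2 stood at 5688 and 5142 TPM in PE on day 0 against 448 and 417 on day 5, while CBNE stood at 8231 and 5420 TPM on day 0 and 7506 and 9626 on day 5. Metazoa_SRP had -13.41 from at most 3 reads in any library.

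Genes with no CBNE read on day 5 but a few on day 0 had the largest positive values. H1-3 had 8.76, with 74 and 158 reads in PE and none in CBNE on day 5, and 19 and 19 in PE and 14 and 6 in CBNE on day 0. H2AC20, another histone mRNA, had 9.22, with 40 and 66 PE reads on day 5 and 2 and 6 CBNE reads on day 0. The pseudogenes AC005912.1 (9.17), which lies in TSPAN9, and AL627309.7 (8.78) rested on 1 read in each CBNE library of day 0. MT-TR, a mitochondrial tRNA, had 17.67, on 4 and 8 PE reads of day 5 and 1 read in each CBNE library of day 0.

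Against day 3, SNORD3B-2 had -3.51 and SNORD3B-1 had -3.42. MT-TW had 10.74, with 29 and 64 PE reads and none in CBNE on day 5, and 14 and 24 in PE and 4 and 7 in CBNE on day 3. H1-3 had 8.22, with 9 and 7 CBNE reads on day 3. AL627309.7 had 8.82, with 12 and 23 CBNE reads on day 3 and none on day 5. MIR3193 had 9.06 and MIR7845, which lies in KLF7, had 8.27, both from at most 13 reads in a library.

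In the other direction RPS18P12 had -6.32 and LINC01963 had -5.74, where CBNE held none of their reads on day 3 and 1 or 3 in each library on day 5. EEF1A1P5, a pseudogene close in sequence to EEF1A1, had -3.47, with 12 and 15 CBNE reads on day 5 and 1 and 5 on day 3. Its call was lost when any PE library of day 3 or day 5, or either CBNE library of day 5, was left out (adjusted p from 0.0651 to 0.0938 in limma).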

How the results depend on the processing

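The counts of calls followed the filter and the scaling, and the cause was not tested except that looser filters test more genes. With a filter of 1 TPM in 2 libraries 5942 of 16682 genes were higher in PE and 1671 lower, and with 100 TPM 439 and 190 of 986. With totals made anew without structured and mitochondrial RNA, 1151 of 4802 were lower. Leaving out a library gave 257 to 1370 higher and 232 to 772 lower. Voom on rebuilt reads gave 1160 and 746, with 1046 and 688 genes called as before and MT-TF, MIR4689 and MT-TS2 called the other way.

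With a common median the day 0 comparison gave 188 higher and 344 lower. It gave 196 and 62 at 100 TPM, 224 and 186 with totals made anew, and 61 to 536 and 15 to 74 with a library left out. The day 3 comparison gave 274 and 338, 231 and 72, 401 and 367, and 218 to 1050 and 50 to 203.

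With the replicate block, 1133 genes were higher in PE and 689 lower, 297 and 59 against day 0, and 596 and 130 against day 3. Across genes, the deviations of same-numbered libraries had r = -0.003 (2 pairs). This cannot show whether same-numbered libraries came from the same cells, since many CBNE values rest on few reads.

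Without mitochondrial genes in the totals, protein-coding RNA took 75.3% of PE and 37.8% of CBNE and snoRNA 2.07% and 25.3%. As shares of reads, protein-coding RNA took 92.5% and 83.2%, snoRNA 0.0445% and 0.663%, and mitochondrial RNA 1.02% and 0.340%. A planned share of TPM times exon length was not run, since TPM is per gene span.

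Signs turned only for differences that were not called or rested on genes unread in CBNE. With a common median GNAS turned to -0.23, MT-ND5 to -0.10 and DPPA4 to -0.31. With quantile normalisation RNA5-8SN1 turned to -0.86, IGFBP3 to -0.059, GNAS to -0.27 and DPPA4 to -0.42. With totals made anew GNAS turned to -0.13 and DPPA4 to -0.20, and without short genes DPPA4 to -0.047. With voom RNA5-8SN1 turned to -2.09, SNORA11F to -0.33, RNU4-2 to -0.74 and RNU5D-1 to -1.12. With a library left out DPPA4 ranged from -0.35 to 0.39, RNA5-8SN1 from -2.67 to 5.99 and L1TD1 from -0.25 to 0.024. Of the day differences, MT-ND5 against day 0 turned to -0.20 and MALAT1 against day 3 to -0.061 with a common median, and MT-CO1 against day 0 ranged from -0.62 to 0.013 with a library left out.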

Other observations

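Transcribed unprocessed pseudogenes, which are copies of genes that kept introns, lay largely on the CBNE side. Of 26 kept, 17 were called lower in PE and 1 higher, beside 21.7% and 35.8% of all genes, and with a common median of the libraries 19 were lower. STAG3L3 stood at 28.9 and 23.6 TPM in PE and 377 and 409 TPM in CBNE. Reads of such copies may be shared with the parent gene. Processed pseudogenes, which lack introns, had 51 of 101 higher and 8 lower, but 38 of the 101 had no CBNE read, and 17 of those 38 stood in PE above the worth of 3 CBNE reads. With unread genes held at that bound the median of the 101 was 0.44, beside 0.41 for all genes kept. Voom on rebuilt reads gave 33 higher and 20 lower. The whole class, kept or not, took more of CBNE than of PE, at 8.42% and 4.04% of TPM and 0.288% and 0.126% of reads.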
